A study of Mus musculus with 48 samples.

Results

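The comparison is between XX and XO mouse embryonic stem cells before differentiation, at 0 h. It rests on 4 of the 48 arrays of a time series, the XX arrays A and B and the XO arrays A and B, which were picked by their titles. Both lines carry the label Pgk12.1. They had been adapted to N2B27 medium with the Gsk3 inhibitor CT-99021, the Mek1 inhibitor PD-0325901 and the cytokine LIF, and both were in that medium at 0 h. Cells at later times had been moved to fibronectin with Activin A and Fgf-basic, without the inhibitors and LIF. XY stem cells of the line E14, held in the same inhibitors and LIF, gave 2 further arrays at 0 h and are used here as an outside level. The labels do not say how the XO cells arose, whether each line is 1 clone, or whether arrays A and B came from separate cultures. The XX and XO cells therefore stand for 1 line each. A p-value reflects only how far replicate arrays scatter, which may be partly technical scatter. Unless stated, that scatter was estimated over 10 arrays, which include XY at 0 h and XX and XO at 36 h, and not over these 4 alone.

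Naive mouse embryonic stem cells of female origin keep both X chromosomes active, whereas in most female cells 1 of them is silenced. XX lines readily lose an X chromosome in culture, and the resulting XO cells have a single active X chromosome. Inhibition of Gsk3 and Mek together with LIF holds stem cells in the naive state, and its removal in favour of Activin A and Fgf leads towards the state of the later epiblast. In differentiating XX cells, 1 X chromosome is then silenced.

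The arrays were Affymetrix Mouse Exon 1.0 ST, which cover each gene with many probes. The values are log2 units per Ensembl gene, in which a difference of 1 is a change by a factor of 2. The files pair the 22745 Ensembl identifiers neither with symbols nor with chromosomes, and 0 of them could be matched to a symbol in the gene table used here. X-linked genes were therefore not separated from other genes, no stem cell or other cell type marker could be checked against the labels, and no gene is given a name. The array medians at 0 h were 6.98 and 6.98 for the XX arrays, against 6.84 and 6.91 for the XO arrays. The interquartile range of an array was 3.17 to 3.18 in XX and 2.99 to 3.03 in XO at 0 h, so the XX arrays lay slightly higher and were slightly wider.

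More genes were higher than lower in XX stem cells, and the largest differences were almost all in that direction. With an adjusted p under 0.05 as the threshold (limma, fitted on the 10 arrays of the conditions with replicates), 1713 genes, or 7.53% of the 22745 tested, were higher in XX, and 369 genes, or 1.62%, were lower, which makes 2082 called genes or 9.15%. For comparison, the XX arrays lay wholly above the XO arrays for 32.9% of all genes and wholly below them for 19.7%, whether or not a gene was called. Of the called genes, 745 were higher by at least 1 log2 unit (3.28% of all genes) and 151 lower by as much (0.664%). At a size of at least 2 log2 units the called genes numbered 106 higher and 10 lower. The typical called difference was modest, with a median of 0.94 log2 units among higher genes (quartiles 0.74 and 1.28) and of -0.90 among lower genes (quartiles -1.19 and -0.72). No called difference was smaller than 0.48, and over all genes the median difference was 0.058.

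The excess of higher genes depended in size on how the arrays were scaled. With each array centred on its median, the median difference over all genes moved to -0.051, and 1153 genes were higher and 553 lower (limma). With quantile normalization of the 10 arrays the split was 1080 and 619 (limma). The share of called genes that were higher in XX was thus 82.3% as deposited, 67.6% after centring and 63.6% after quantile normalization. Each of the 4 arrays moved the total of 2082 by over 1.5 times when left out. The total was 1308 or 1365 in the absence of the A or the B array of XX, and 818 or 689 in the absence of the A or the B array of XO. A fit of these 4 arrays alone, with fewer degrees of freedom, called 891 genes, 754 higher and 137 lower.

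**Figure D1:**
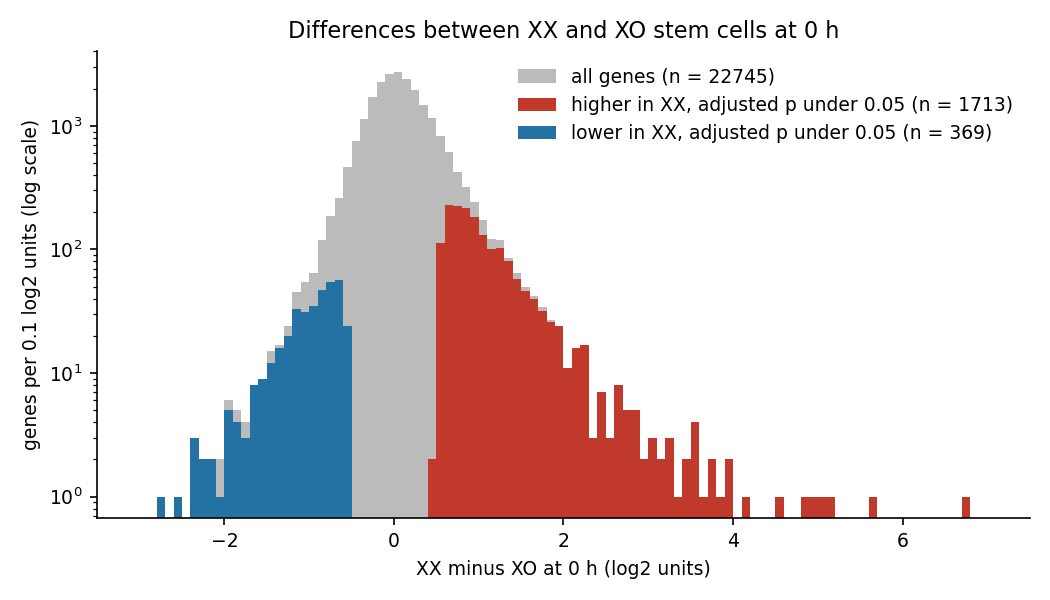
Number of genes (log scale) by XX minus XO difference at 0 h, in steps of 0.1 log2 units, for all 22745 genes (grey) and for the 1713 genes called higher (red) and 369 called lower (blue) in XX. The right flank reaches 6.77 log2 units, and the left flank ends at -2.75.

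Whether a size seen on 1 pair of arrays returned on the other was looked at by choosing genes on arrays A and measuring them on arrays B, which was decided on with the data known. The 133 genes with an XX minus XO difference of 2 log2 units or more on arrays A had a median difference of 2.19 on arrays B, and 97.0% of them were higher in XX there. The 930 genes that were 1 to 2 units higher on arrays A had a median of 0.96 on arrays B, and 90.9% were higher there, against 54.0% of all genes. The 13 genes at least 2 units lower on arrays A had a median of -2.36 on arrays B. The 289 genes that were 1 to 2 units lower on arrays A had a median of -0.71 on arrays B, and 80.6% were lower there, against 46.0% of all genes. With the roles exchanged, the 899 genes that were 1 to 2 units higher on arrays B had a median of 1.00 on arrays A, the 399 genes that were 1 to 2 units lower had a median of -0.38, and the 27 genes at least 2 units lower had a median of -1.42. Across all genes the difference on arrays A correlated with that on arrays B at a Pearson r of 0.593. With the letters crossed, XX A minus XO B against XX B minus XO A, r was 0.530. Genes are not independent replicates, and each array's departures are shared by its genes. Arrays A and B may not be separate cultures, so these values describe only how far arrays of the same lines repeat each other.

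The gene ENSMUSG00000035299 had the largest difference. Its level was 12.40 and 12.26 in XX stem cells, against 5.70 and 5.41 in XO stem cells. In XY stem cells it was 13.17 and 13.05. XX and XY cells were thus both high, and the XO cells stood alone. The XX minus XO difference was 6.77 log2 units (SE 0.21, limma adjusted p = 3.26e-06). Whether the XO signal was above background is not known here, so the size may be understated. The gap did not close in differentiation medium, where the 16 XX arrays after 0 h lay at 12.11 to 12.71 and the 17 XO arrays at 4.74 to 6.68. At 36 h, on other arrays, the difference was 6.46 (SE 0.21, limma adjusted p = 4.93e-06).

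ENSMUSG00000030208 came next with 11.76 and 11.71 in XX stem cells, against 6.71 and 5.48 in XO stem cells. XY stem cells lay between them at 8.42 and 8.80. The XX and XO arrays did not overlap, although the XO arrays differed from each other by over 1 log2 unit. The difference was 5.64 (SE 0.34, limma adjusted p = 1.30e-04). At 36 h it was 3.91 (SE 0.34, limma adjusted p = 4.17e-04), and the change of the difference between 36 h and 0 h, -1.73 (SE 0.48, limma adjusted p = 0.131), did not pass. XX arrays remained higher at all 16 times that both lines share, with the smallest difference, 3.59, at 24 h. XY cells started between the others and reached 5.68 at 84 h, near the 6.11 of XO cells and far from the 10.56 of XX cells (1 array each).

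ENSMUSG00000019989 was at 5.46 and 6.52 in XX stem cells, against 8.43 and 9.05 in XO stem cells, and at 7.92 and 7.09 in XY stem cells. The XX minus XO difference was -2.75 (SE 0.37, limma adjusted p = 0.00297). At 6 h the XX array read 8.12 and the XO array 10.22, so the XX cells at 6 h had not yet come to the 0 h levels of XO cells. At 12 h the XX array read 10.20 and the XO array 10.77. At 36 h the difference was -0.67 (SE 0.37, limma adjusted p = 0.340).

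ENSMUSG00000028487 was at 6.38 and 6.07 in XX stem cells, against 8.75 and 8.86 in XO stem cells. XY stem cells lay between them at 7.23 and 7.37. The difference was -2.58 (SE 0.16, limma adjusted p = 1.39e-04). Levels reached 10.70 in XX and 11.34 in XO at 24 h. The order of the lines later turned, with 9.06 in XX and 7.36 in XO at 84 h (1 array each). At 36 h the difference was -0.38 (SE 0.16, limma adjusted p = 0.202), and the change of the difference between 36 h and 0 h was 2.20 (SE 0.23, limma adjusted p = 0.00560). The same test gave 2.08 (SE 0.53, limma adjusted p = 0.102) for ENSMUSG00000019989, which did not pass.

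**Figure D2:**
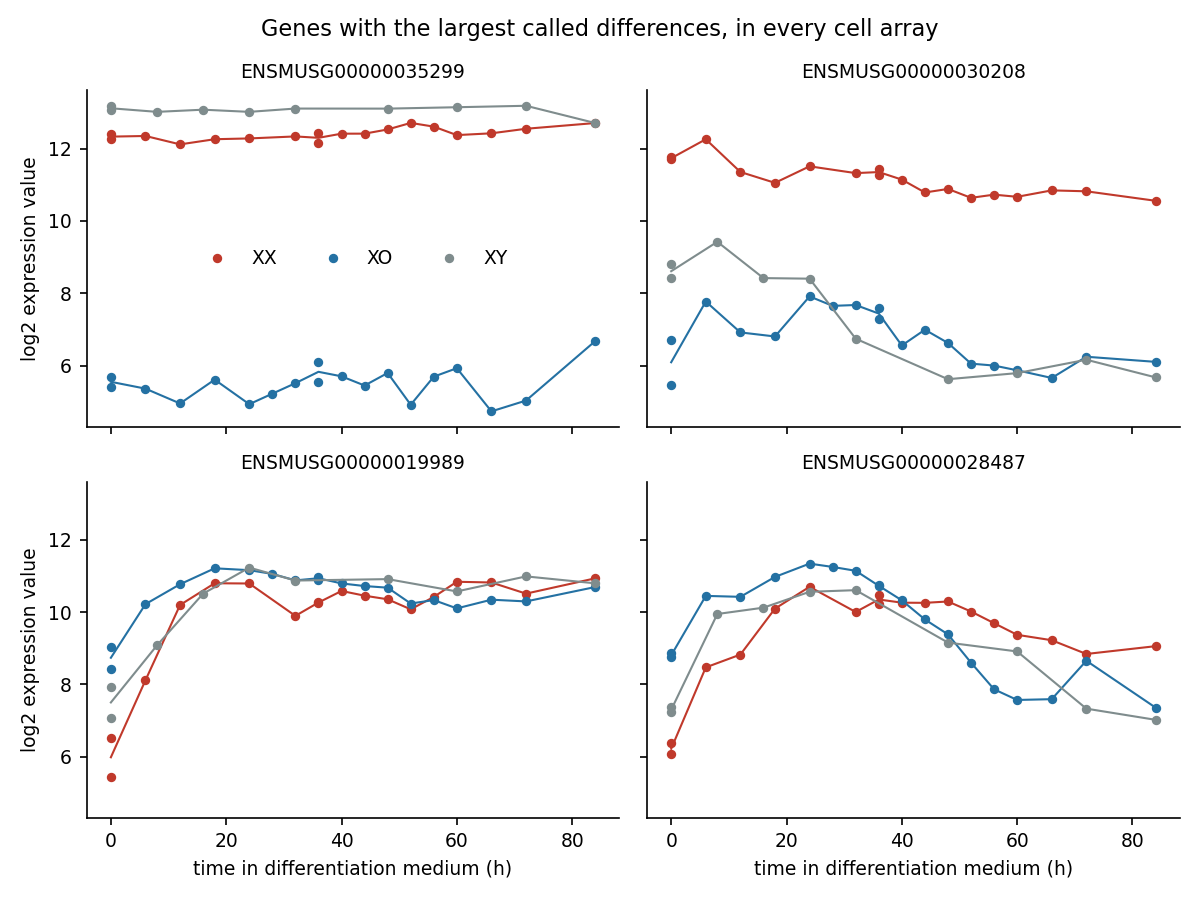
Log2 expression value of the 4 genes in every cell array against hours in differentiation medium, with a point per array and a line through the means for XX (red, 18 arrays), XO (blue, 19) and XY (grey, 10). The upper genes keep XX above XO throughout, and the lower genes start lowest in XX and later meet or cross the XO line.

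Among genes with very low signal in 1 line, the direction was again mostly XX over XO. Signal in the lowest 25% of both XO arrays together with signal above the median of both XX arrays was found for 26 genes. Their XX minus XO differences ran from 1.95 to 4.98 log2 units with a median of 2.96, and all 26 passed the test (largest limma adjusted p = 0.00366), as a choice on these same arrays makes likely. The opposite pattern, low in both XX arrays and above the median in both XO arrays, was found for 1 gene, which was -2.37 in XX minus XO (limma adjusted p = 5.16e-04). Of the 26 genes, 15 were also in the lowest 25% of both XY arrays, and 3 were above the median of both. At 36 h, 24 of the 26 were higher in XX. Of the 26, 17 (65.4%) passed the test in that direction, against 5.61% of all genes called higher in XX at 36 h (limma). The share was 66.0% for the 106 genes higher by at least 2 log2 units at 0 h, a set that overlaps the 26. The 26 genes thus did not stand out from genes of similar difference. At 36 h, 13 of the 26 were still in the lowest 25% of both XO arrays, and 11 were above the median of both XX arrays. Background levels were not used here, so the size of a difference that starts from such low signal may be understated. In samples of many cells, a lower level in each cell and fewer cells with the transcript cannot be told apart.

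Calls were more frequent among the genes with the most signal than among those with the least, but did not rise steadily between. Of 5 equal groups by level, the share called higher as deposited peaked in group 4 (11.96%). The share called lower peaked in group 3 (2.20%). As deposited, 1.76% of the 4549 genes with the lowest mean level over the 4 arrays were called higher in XX and 0.879% lower, while of the 4549 genes with the highest mean level 10.99% were called higher and 1.54% lower (limma). Higher genes made up 66.7% of the calls at the lowest levels and 87.7% at the highest. This trend in direction turned under quantile normalization, which gave 69.4% at the lowest and 55.7% at the highest levels, and it was 43.9% and 71.0% with centred arrays. At the highest levels most calls were thus higher in XX under each of these scalings, while the trend with level depended on the scaling.

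The levels of XY stem cells, another line with a single X chromosome, do not enter the XX minus XO difference, although the XY arrays share in the estimate of each gene's spread. Their median level for the 106 genes higher in XX by at least 2 log2 units was 6.25, beside 8.46 in XX and 5.66 in XO. For 75.5% of these genes the XY level was nearer to XO than to XX, or 72.6% with centred arrays. For all 1713 higher genes this share was 64.3%, or 54.8% with centred arrays, beside 49.2% and 50.2% of all genes. For the 968 genes higher by less than 1 unit it was 59.8%, or 48.7% with centred arrays, so their side depended on the scaling. For the 369 lower genes it was 47.4%, or 54.2% with centred arrays, so their XY levels had no settled side. XY levels lay between those of XX and XO for 63.5% of the higher and 56.4% of the lower genes, against 29.4% of all genes. A wide gap between XX and XO holds another level more often than a narrow one, so these shares are a description only.

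**Figure D3:**
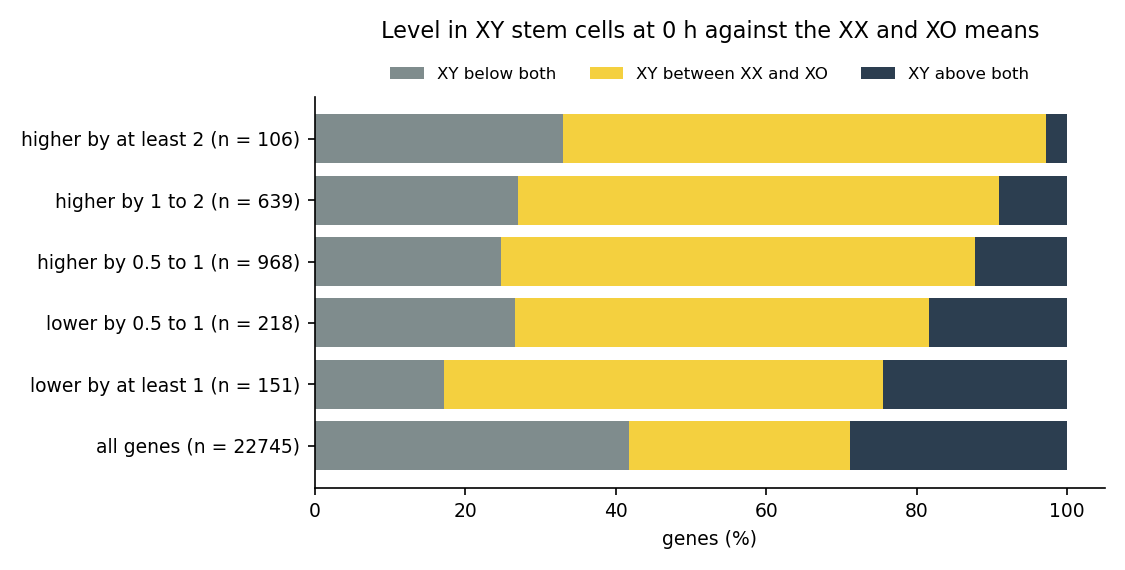
Share of genes (%) whose mean level in XY stem cells at 0 h lay below both the XX and the XO mean (grey), between them (yellow) or above both (dark), for genes called at 0 h grouped by the size of the XX minus XO difference in log2 units, and for all genes. For genes higher in XX by at least 2 units, 33.0% lay below both means and 2.83% above both.

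The differences of the stem cells were next followed on the arrays of 36 h. Their levels do not enter the 0 h difference, but both tests use the same estimate of each gene's spread, so genes with a small spread are more easily called in both. Of the 1713 genes higher in XX at 0 h, 630 were called higher and 19 lower in XX at 36 h, where 5.61% and 3.36% of all genes were called (limma). That is 36.8% and 1.11% of these genes. The split of all calls at 36 h depended on the scaling, with 1277 genes higher and 764 lower as deposited, 1022 and 1037 with centred arrays, and 1164 and 1007 with quantile normalization. The median XX minus XO difference of the 1713 genes was 0.49 at 36 h, against 0.94 at 0 h. The share called again was larger for larger differences. It was 27.2% of the 968 genes that had been higher by less than 1 log2 unit, 46.5% of the 639 genes higher by 1 to 2 units, and 66.0% of the 106 genes higher by at least 2 units. The 369 lower genes had a median of -0.35 at 36 h, against -0.90 at 0 h, and 110 of them (29.8%) were called lower and 14 (3.79%) higher at 36 h. By size, 28.0% of the 218 genes lower by less than 1 unit and 32.5% of the 151 genes lower by at least 1 unit were called lower at 36 h. Genes chosen for their difference at 0 h tend to differ less on any other arrays, through that choice alone.

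Tested gene by gene, the XX minus XO difference changed between 36 h and 0 h for 376 genes, or 1.65% of those tested (limma). The value moved upwards for 151 of them and downwards for 225. At 36 h itself 2041 genes, or 8.97%, were called, and this total was 935 or 801 in the absence of the A or the B array of XX, and 867 or 1065 in the absence of the A or the B array of XO. The 376 genes became 57 without either XX array of 36 h, 79 and 100 without XO A and XO B of 36 h, 149 without XX B of 0 h, and 77 and 64 without XO A and XO B of 0 h. Fitted on the XX and XO arrays of each comparison alone, 1329 genes were called at 36 h and 240 for the change.

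Over the 15 later times that both lines share, the 1713 higher genes kept a positive median and the 369 lower genes a negative one. The median of the 369 lower genes came close to 0 over 52 to 66 h. That of the 151 genes lower by at least 1 unit was above 0 there. At 72 and 84 h the medians of all higher and all lower genes lay at similar distances from 0. All medians here are XX minus XO, relative to the median of all genes at the same time, and each time other than 0 and 36 h has 1 array per line. The median of the 1713 higher genes was 0.88 at 0 h, 0.42 to 0.59 over 6 to 24 h, 0.32 to 0.46 over 32 to 48 h, 0.46 to 0.65 over 52 to 66 h, and 0.17 and 0.16 at 72 and 84 h. The 106 genes higher by at least 2 units stood at 2.42 at 0 h, 1.49 to 1.99 over 6 to 24 h, and 0.56 and 0.73 at 72 and 84 h. The 369 lower genes went in the other direction, with -0.96 at 0 h, -0.75 to -0.67 over 6 to 24 h, -0.58 to -0.26 over 32 to 48 h, and -0.11 to -0.020 over 52 to 66 h. At 72 and 84 h they stood at -0.18 and -0.15. The 151 genes lower by at least 1 unit stood at -1.14 to -0.94 over 6 to 24 h. Over 52 to 66 h their median turned to 0.072 to 0.17, and at 72 and 84 h it was -0.12 and -0.018.

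The higher median at 52 to 60 h and the low one at 72 and 84 h came with a change in the arrays. At 52 to 60 h the interquartile range was 3.09 to 3.19 in XX arrays and 2.77 to 2.90 in XO arrays. At 72 and 84 h it was 3.01 to 3.06 in XX and 3.21 to 3.28 in XO. The part of this in the course of the medians was not tested.

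**Figure D4:**
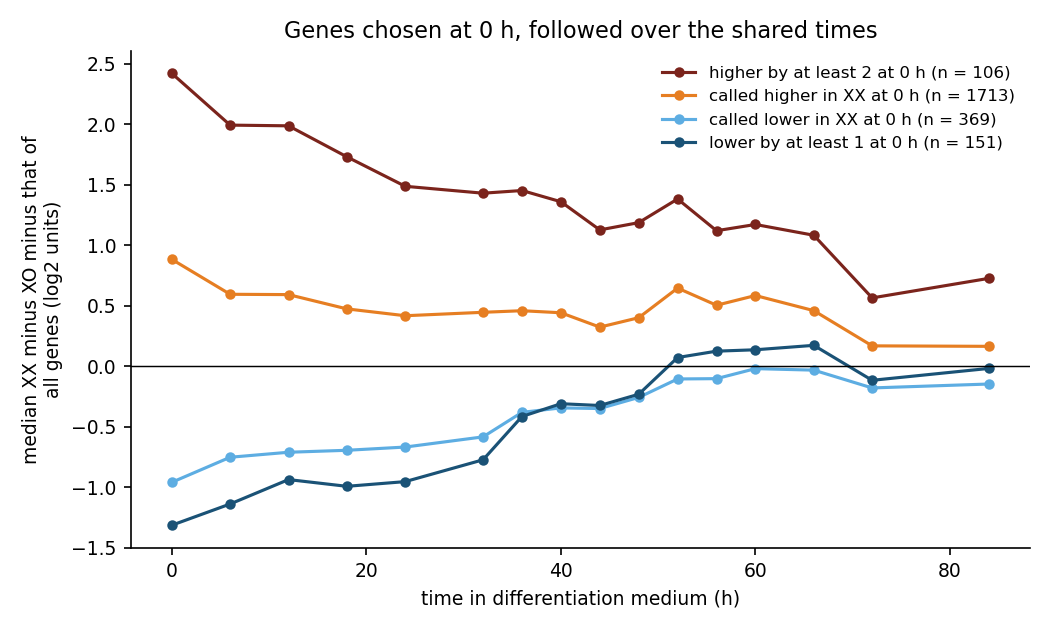
Median XX minus XO difference (log2 units), relative to the median of all genes at the same time, of genes chosen at 0 h, against hours in differentiation medium at the 16 shared times. The genes higher in XX stay above 0 to 84 h. The median of all 369 genes called lower in XX stays below 0 and comes close to it over 52 to 66 h. That of the 151 genes lower by at least 1 unit lies above 0 over 52 to 66 h, at 0.072 to 0.17. At 72 and 84 h all called higher and all called lower genes lie at similar distances from 0.

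The genes that differed between the stem cells were also followed in XY cells, whose course shares no array with the XX minus XO difference. A mean level over 60 to 84 h at least 1 log2 unit below that at 0 h was seen for 14.7% of the 1713 higher genes and 19.8% of the 369 lower genes, against 6.53% of all genes. A level at least 1 unit above that at 0 h was seen for 11.2% of the higher and 16.8% of the lower genes, against 6.95% of all genes. Genes that moved in XY differentiation, in either direction, were thus more frequent in both sets than among all genes. Over 8 to 24 h, 10.3% of the lower genes were at least 1 unit up in XY cells and 3.79% as far down, against 2.81% and 1.92% of all genes. For the higher genes these early shares were 4.90% and 4.32%. Called genes have more signal than other genes, and no test was made of these shares.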

How the data were processed

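The authors deposited log2 expression values per Ensembl gene. Per the submitters' processing notes, the tools were affy and RMA, a method that subtracts background, normalizes by quantiles and summarises probes. Their versions, the genome build and the probe annotation were not given in the sources used here. Differences were tested with limma 3.58.1 in R 4.3.3 (lmFit, then eBayes, with two-sided p-values adjusted by Benjamini-Hochberg over 22745 genes) on 10 arrays, XX, XO and XY at 0 h and XX and XO at 36 h, with 5 residual degrees of freedom. Arrays have no read depth, and their number limits the precision. An exact permutation test of 2 arrays against 2 cannot go below p = 0.333 and was not used. In a simulation of 22745 genes, 50 genes per size were altered and so far fewer than were called here. This fit recovered 0%, 36%, 84% and 92% of XX minus XO changes of 0.5, 1, 2 and 3 log2 units at 0 h, with 3 false calls. The simulated noise was independent between genes and had no departures shared by a whole array. The 3 false calls therefore do not give the rate of false calls in these data. Nor do the recovered shares carry over to these data, since the adjustment of p-values depends on how many genes differ. Descriptive values used Python 3.11.15. The comparison and all lists were chosen with earlier results of these data known. The 30 gene lists and the X-linked comparison needed gene names and were left out. Identifiers printed are the 2 of each direction with the largest difference among called genes whose XX arrays lay wholly above or wholly below the XO arrays. Alternatives were array scaling, a filter at 6 log2 units, a variance trend, fewer arrays and replicate letters.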

Additional observations from a re-analysis of the deposited data

Results flagged for a closer look

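The XX minus XO difference of ENSMUSG00000028487 was -0.38 at 36 h and -2.58 at 0 h, and the test of the change between both times gave 2.20 (SE 0.23, limma adjusted p = 0.00560). The difference changed between 36 h and 0 h for 376 genes by the same test.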

How the results depend on the processing

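The 4 genes given by identifier kept their direction under all 10 alternatives run on them. They passed the test under those that kept all 4 arrays. The choice of genes required a call and no overlap between XX and XO on these same arrays. The filter, the variance trend, the replicate block and the fit of 4 arrays do not alter the difference itself. Leaving out 1 array could not turn the direction of these genes. Their ranges were 6.63 to 6.92 for ENSMUSG00000035299, 5.02 to 6.26 for ENSMUSG00000030208, -3.28 to -2.22 for ENSMUSG00000019989 and -2.73 to -2.43 for ENSMUSG00000028487, with limma adjusted p of at most 0.0294. Fitting only the arrays of a comparison, which leaves fewer degrees of freedom, gave 891 called genes at 0 h, 1329 at 36 h and 240 for the change between them. Leaving out 1 array gave 689 to 1365 genes at 0 h, 801 to 1065 at 36 h and 57 to 294 for the change, with fewer arrays in each fit. The filter at a mean of 6 gave 2357 genes at 0 h among 15312 tested, and the variance trend 2529. With centred arrays the share of lower genes with XY nearer XO was 54.2%, on the other side of 50% from the value as deposited, and the cause was not tested. The A minus B differences of XX and XO correlated across genes at r = 0.0948 at 0 h and r = 0.189 at 36 h. Such values cannot tell whether arrays of the same letter shared a culture or a batch. With the replicate block, 1837 genes were called at 0 h, 1832 at 36 h and 275 for the change. The alternatives for X-linked genes and gene lists were not run.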
